A study of Mus musculus with 6 samples.

Results

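The D-type and E-type cyclins, the kinases they switch on, the phosphatase Cdc25a and the transcription factor Myc were followed in mouse intestinal crypts, the glands that hold the dividing cells of the gut lining. The list holds 10 genes, and every array probe whose accession belongs to one of them was read. In all, 8 of the 10 genes had a probe, giving 13 of the 41006 probes. Of these genes, 5 had 2 probes, namely Ccnd1, Ccne1, Cdk4, Cdk6 and Myc, and their probes were kept apart. Ccnd3, Cdk2 and Cdc25a had 1 probe each. No probe was paired with Ccnd2 or Ccne2, which were not analysed here.

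Crypts were cut by laser microdissection from frozen sections of the middle small intestine of 6 C57BL/6 mice aged 120 days. The 3 LOI(+) mice carried a germline deletion of H19 and its upstream differentially methylated region, inherited from an H19+/- mother crossed to a wild-type male. Per the series' design, this allele turns on the maternal copy of Igf2, a growth factor gene that is normally read from the paternal copy alone (loss of imprinting, LOI). The 3 LOI(-) mice were wild type and came from the same kind of cross. The deletion takes out H19 itself and lies in every cell of the animal. The labels call 4 of the mice male and give no sex for LOI(+) 2 and LOI(-) 3. RNA of each mouse was labelled with Cy3 and hybridised, on an array of its own, against Universal Mouse Reference RNA, made from pooled cell lines and labelled with Cy5. Every array had the dyes this way round, and any dye effect of a probe enters both groups alike.

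The G1 cyclins time the decision to copy DNA. Growth factor and Wnt signals raise D-type cyclins, which bind Cdk4 and Cdk6 and begin to phosphorylate the retinoblastoma protein, and released E2F factors then turn on the E-type cyclins, which bind Cdk2 and complete that step. Cdc25a removes inhibitory phosphates from these kinases, and Myc, a target of Wnt signalling in crypts, promotes growth and the expression of several of the genes above.

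Values are log2 of Cy3 over Cy5, so 0 means that crypt RNA and pooled RNA gave equal normalized signal. Differences are LOI(+) minus LOI(-) on that scale, with their standard error (SE) and n = 3 mice per group. Precision is limited by the small number of arrays. Per array, median Cy3 was 552 to 603 and median background 387 to 391. On all 6 arrays the Cy3 signal of all 13 probes exceeded 95% of the negative control features, a limit of 439 to 449, and 0 were saturated. LOI(+) 2 correlated least with the other arrays, with a mean r of 0.948 across probes, against 0.956 to 0.963 for the others. No probe was paired with H19, so the deleted gene did not check the group labels. Igf2 had log2 ratios of 0.07, 0.09 and 0.11 in LOI(+) crypts and 0.16, 0.04 and 0.08 in LOI(-) crypts, which overlapped. All 8 defining markers of epithelium were above the negative controls on all 6 arrays. Against the pooled RNA, Vil1, Cdh1, Krt19 and Epcam had log2 ratios of 2.9 or more on every array, Krt8 and Cdx1 had 0.59 to 2.37, and Krt18 and Cdx2 lay on both sides of 0, from -0.22 to 0.39.

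The widest difference between LOI(+) and LOI(-) crypts among the 13 probes was that of a Ccne1 probe with a 1.46-fold higher mean in LOI(+), and the other Ccne1 probe differed by -0.02 on the log2 scale. Neither passed the test after adjustment. The probes of Ccnd1, Ccnd3, Cdk2, Cdk4, Cdk6, Cdc25a and Myc had log2 differences between -0.20 and 0.18. After Benjamini-Hochberg adjustment over all probes in limma, 0 of 13 passed 0.05, and the members' adjusted p ran from 0.808 to 0.972. Over all 41006 probes 0 passed as well, which is 0% of those tested. At an unadjusted p under 0.05, 1 of the 13 passed, the Ccne1 probe, and 0 were lower. Of all probes 6.11% passed, 3.82% higher and 2.3% lower, so a count of 1 is near the background. The median difference of the 13 probes was 0.031, against 0.0023 over all probes, with 7 of the 13 probes higher, where 51% of all probes were, and 6 lower. In bulk RNA such as this, fewer cells of a type and less RNA per cell cannot be told apart.

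**Figure D1:**
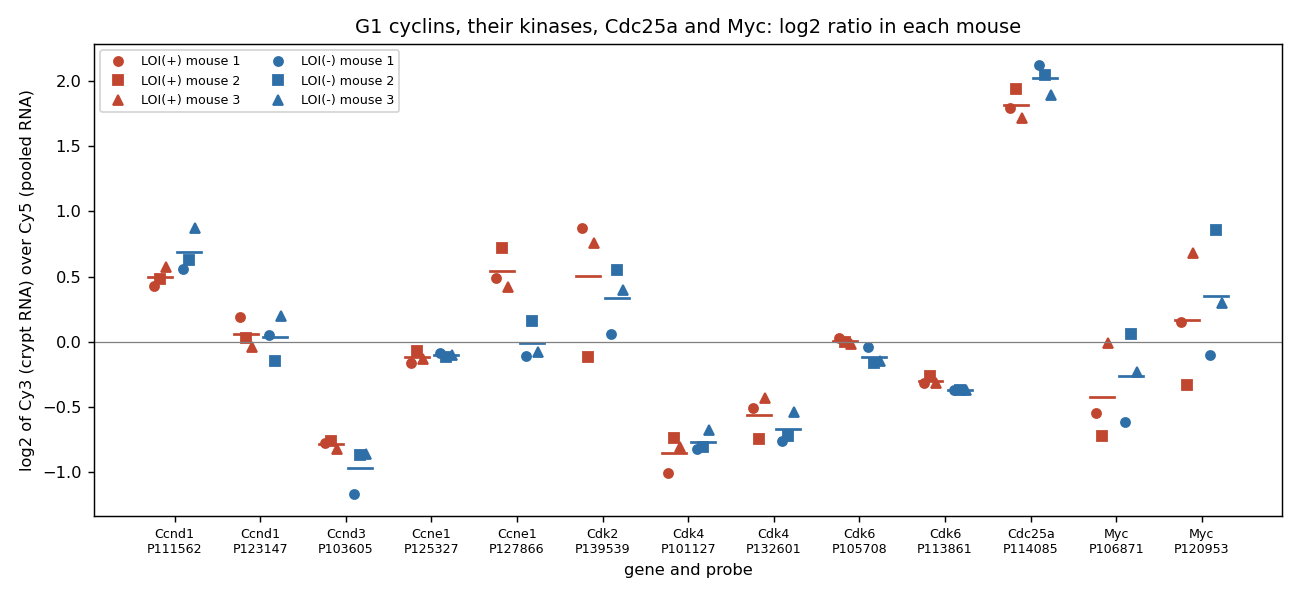
Log2 ratio of Cy3 over Cy5 for each probe of the listed genes, with a point per mouse, LOI(+) left in red and LOI(-) right in blue, and a bar at each group's mean. The Ccne1 probe A_66_P127866 has its 3 LOI(+) mice at 0.42 to 0.72 and its 3 LOI(-) mice at -0.11 to 0.16, and Cdc25a lies highest against the pooled RNA.

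Ccne1 encodes cyclin E1, the partner of Cdk2 at the end of G1. Its probes are both 60 bases long, carry the same transcript accession and share no run of 20 bases with any other probe of the array. The first 30 bases of each are shown, 5′ to 3′ as deposited, because the result for this gene depends on which of them is read. Neither has any base in capitals, since no motif was marked.
A_66_P127866: gtcagccaacagcatgtcctgccttcatga
A_66_P125327: ataaaaacacttttacagcttattgggatt
The whole probes differ in base composition, with 45% of bases G or C in A_66_P127866 and 30% in A_66_P125327.

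The Ccne1 probe A_66_P127866 had log2 ratios of 0.49, 0.72 and 0.42 in LOI(+) crypts, against -0.11, 0.16 and -0.08 in LOI(-) crypts. Every LOI(+) mouse lay above every LOI(-) mouse, which held for 6.26% of all probes in that direction. The means were 0.54 ± 0.16 (SD, n = 3) in LOI(+) and -0.01 ± 0.15 (SD, n = 3) in LOI(-). The difference was 0.55 ± 0.11, with a 95% interval from 0.30 to 0.80 and an adjusted p of 0.808 in limma. Its unadjusted p of 0.00135 in limma ranked the probe 48 among 41006. Before any correction the scanner's raw Cy3 signal was also apart, with 1291, 1587 and 1391 in LOI(+) mice, against 1061, 975 and 941 in LOI(-) mice. Raw Cy3 signals lay apart in this way, higher in LOI(+), for 4.27% of all probes. The Cy5 signal of the pooled RNA at this spot ran from 1639 to 2058 in LOI(+) and from 1645 to 1706 in LOI(-).

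The dimmer Ccne1 probe, A_66_P125327, had log2 ratios of -0.16, -0.07 and -0.13 in LOI(+) and -0.09, -0.12 and -0.10 in LOI(-). The groups overlapped and the 6 mice spanned 0.09 on the log2 scale. Its difference was -0.02 ± 0.054, with a 95% interval from -0.14 to 0.11. Raw Cy3 lay between 557 and 634, closer to the negative controls than A_66_P127866. Within each mouse, A_66_P127866 minus A_66_P125327 was 0.64, 0.79 and 0.55 in LOI(+), against -0.02, 0.28 and 0.03 in LOI(-). This gap was wider in LOI(+) by 0.57, and the exact two-sided permutation test over the arrays gave p = 0.1, the smallest that 3 against 3 mice allow. Adjusted over the 5 genes with 2 probes, the exact p was 0.5. Which of the probes follows cyclin E1 mRNA more closely was not tested.

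**Figure D2:**
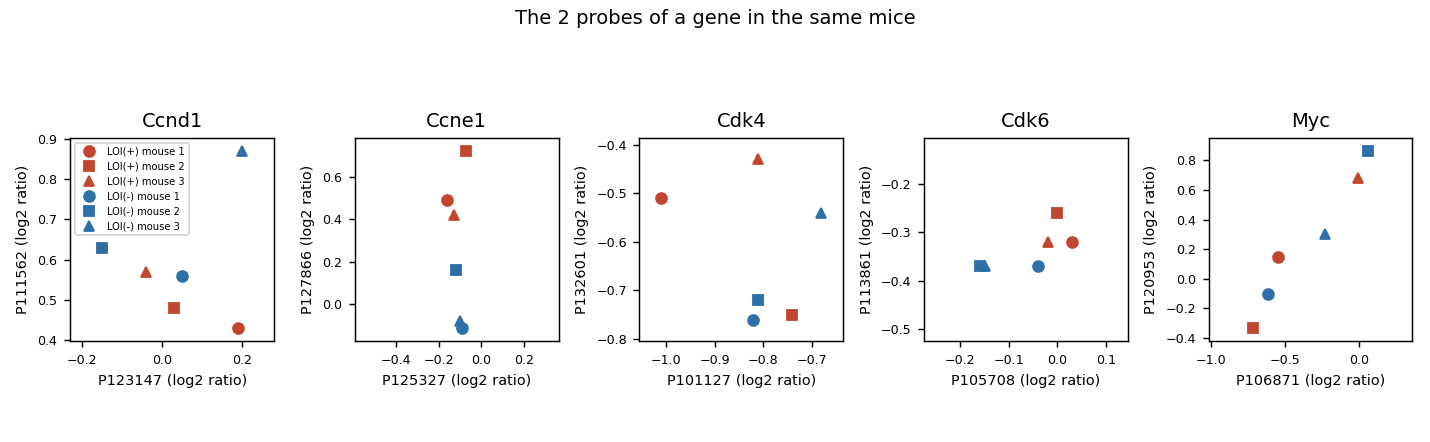
Log2 ratios of the brighter probe (vertical axis) against the other probe (horizontal axis) of each gene with 2 probes, a point per mouse, LOI(+) in red and LOI(-) in blue, symbols by mouse number, both axes of a panel to the same scale. The groups separate along the vertical axis for Ccne1 alone of these 5 panels without separating along the horizontal one, and the Myc mice line up along a diagonal.

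Some marker genes also differed with the group. Over all named genes, 52.8% had a higher mean in LOI(+), 4.92% were higher at an unadjusted p under 0.05 and 2.58% were lower. Of 8 measured genes of the lower small intestine, such as the bile acid binding protein Fabp6, 8 had a lower mean in LOI(+) and 3 of them had an unadjusted p under 0.05 in limma, while 4 of the 6 measured genes of its upper part had a higher mean, 2 of them at that level. Summed Cy3 above background ran from 7541 to 13324 in LOI(+) and from 7933 to 23458 in LOI(-) for the lower list, and from 7551 to 14663 in LOI(+) and from 2682 to 8922 in LOI(-) for the upper list. With each gene centred on its own mean, log2 ratios of the upper list averaged 0.064, 0.147 and 0.318 in LOI(+) mice. In LOI(-) mice they averaged -0.342, -0.0408 and -0.147, which did not overlap. The lower list had -0.38, -0.181 and -0.162 in LOI(+), against 0.641, -0.226 and 0.307 in LOI(-), which overlapped. These lists were written with earlier results of these data known. Fabp6 was not above the negative controls on all arrays and had its highest log2 ratios in LOI(-) 1 and LOI(-) 3. Of 6 markers of villus enterocytes, the absorptive cells above the crypt, 5 were higher in LOI(+), 1 of them at an unadjusted p under 0.05 in limma. The summed Cy3 of these markers ran from 31916 to 50810 in LOI(+) and from 24161 to 29944 in LOI(-). The mean of their centred log2 ratios overlapped, with 0.112, -0.00926 and 0.177 in LOI(+) mice, against -0.434, 0.0945 and 0.0601 in LOI(-) mice, of which LOI(-) 1 lay far below the rest. Of the 8 epithelial markers 7 had a lower mean in LOI(+), 2 of them at an unadjusted p under 0.05 in limma, and 6 of 7 goblet cell markers did, again with 2. The centred mean of the epithelial markers was -0.0683, -0.16 and -0.0712 in LOI(+), against -0.0022, 0.074 and 0.228 in LOI(-), which did not overlap. That of the goblet cell markers was -0.0761, -0.158 and 0.0215 in LOI(+), against 0.131, -0.0603 and 0.142 in LOI(-), which overlapped. Of 7 Paneth cell markers 5 had a lower mean, 1 at that level. Their centred mean was -0.0447, -0.094 and -0.161 in LOI(+), against 0.163, 0.0428 and 0.0939 in LOI(-), which did not overlap. The summed Cy3 of these 3 lists overlapped between the groups, with 97626 to 118059 in LOI(+) and 87753 to 119309 in LOI(-) for epithelium, 64853 to 110779 in LOI(+) and 61634 to 137669 in LOI(-) for goblet cells, and 132060 to 185128 in LOI(+) and 127077 to 284237 in LOI(-) for Paneth cells. Summed Cy3 is not normalized between arrays, and the brightest genes of a list weigh most in it. Among smooth muscle, fibroblast, B, T, myeloid and endothelial lists, 4 of 5, 5 of 6, 3 of 6, 7 of 8, 5 of 6 and 4 of 5 genes had a lower mean. At an unadjusted p under 0.05 in limma, 2 smooth muscle, 1 T cell and 1 myeloid gene were lower. In the fibroblast, B and endothelial lists 0 were lower at that level, and 0 were higher in any of these lists. Cald1 of smooth muscle and Tek and Tie1 of endothelium were not above the negative controls on all arrays. Of 7 crypt stem cell markers 5 had a higher mean in LOI(+) and 2 a lower one, 0 of them at that level. Their centred mean was -0.00319, -0.0744 and 0.222 in LOI(+), against -0.0536, -0.128 and 0.037 in LOI(-), which overlapped. Their summed Cy3 overlapped as well, with 10504 to 13231 in LOI(+) mice and 8843 to 12540 in LOI(-). The part of tissue position or cell makeup in the Ccne1 difference was not tested.

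The D-type cyclins were read through Ccnd1, which Wnt and growth factor signals induce, and Ccnd3. The brighter Ccnd1 probe, A_66_P111562, had log2 ratios of 0.43, 0.48 and 0.57 in LOI(+) and 0.56, 0.63 and 0.87 in LOI(-). LOI(-) 3 was the highest of the 6 mice, and the groups overlapped by the values of LOI(+) 3 and LOI(-) 1. It differed by -0.19 ± 0.092, at an adjusted p of 0.823 in limma, and by -0.10 without LOI(-) 3. Without LOI(-) 1 this difference was -0.26, at an unadjusted p of 0.0377 and an adjusted p of 0.866 in limma. With the replicate block it stayed at -0.19, at an unadjusted p of 0.0356 and an adjusted p of 0.76 in limma. The other Ccnd1 probe, A_66_P123147, had values of 0.19, 0.03 and -0.04 in LOI(+) and 0.05, -0.15 and 0.20 in LOI(-), a difference of 0.03 ± 0.11. The mice did not keep their order between these probes, and the gap between the probes differed by -0.23 between the groups (exact two-sided permutation p = 0.2). Thus the 95% intervals run from -0.41 to 0.02 by the brighter probe and from -0.22 to 0.28 by the other.

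Ccnd3 had log2 ratios of -0.78, -0.76 and -0.82 in LOI(+) and -1.17, -0.87 and -0.86 in LOI(-). All LOI(+) mice lay above all LOI(-) mice, by a margin of 0.04 between LOI(+) 3 and LOI(-) 3, and LOI(-) 1 was the lowest. This probe differed by 0.18 ± 0.091, at an adjusted p of 0.823 in limma. Without LOI(-) 1 the difference was 0.08, and without background correction it was 0.04. Raw Cy3 at this spot was low, between 518 and 545.

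The probes of Cdk4 and Cdk6, the kinase partners of the D-type cyclins, had log2 differences between -0.08 and 0.12. The brighter Cdk4 probe, A_66_P132601, had log2 ratios of -0.51, -0.75 and -0.43 in LOI(+) and -0.76, -0.72 and -0.54 in LOI(-), which overlapped. Its difference was 0.11 ± 0.10, and that of the dimmer probe A_66_P101127, with Cy3 of only 511 to 579, was -0.08 ± 0.087. With an array left out these differences ranged from 0.04 (without LOI(+) 3) to 0.20 (without LOI(+) 2) and from -0.14 (without LOI(+) 2) to -0.0058 (without LOI(+) 1). With median centring in place of loess the brighter probe differed by 0.20, at an unadjusted p of 0.0369 in limma. In the mice labelled male it differed by 0.27, at an unadjusted p of 0.0185 in limma. Neither value passed after adjustment. The raw Cy3 of A_66_P132601, which is not normalized between arrays, did lie apart. It was 5093, 5692 and 7097 in LOI(+) mice, against 4914, 3963 and 4570 in LOI(-) mice. Of all probes 4.27% had raw Cy3 apart and higher in LOI(+). The raw Cy5 of this probe was also highest in LOI(+) 3, at 22280, against 15699 to 17842 on the other arrays.

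Cdk6 was read by a pair of probes that gave the same direction. Probe A_66_P105708 had log2 ratios of 0.03, 0.00 and -0.02 in LOI(+) and -0.04, -0.16 and -0.15 in LOI(-). Probe A_66_P113861 had -0.32, -0.26 and -0.32 in LOI(+) and -0.37, -0.37 and -0.37 in LOI(-). By the log2 ratios of either probe every LOI(+) mouse lay above every LOI(-) mouse, though only just. Raw Cy3 of these probes did not lie apart, and LOI(-) 1 had the highest value on both. It was also low, from 591 to 781 for A_66_P105708 and from 653 to 812 for A_66_P113861. The differences were 0.12 ± 0.058 and 0.07 ± 0.052, with adjusted p of 0.823 and 0.852 in limma, and the 95% intervals end at 0.26 and 0.19. Without background correction they were 0.06 and 0.05, with unadjusted p of 0.024 and 0.0441 and adjusted p of 0.806 and 0.821 in limma. Together with Ccnd3 and 1 probe of Ccne1, the Cdk6 probes made 4 of 13 probes whose groups did not overlap in the reported fit, all higher in LOI(+) and 0 lower. Over all probes with a value on every array 11.3% did not overlap, 6.26% higher and 5.04% lower.

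Cdk2, the partner of E-type cyclins, varied among the LOI(+) mice. Its log2 ratios were 0.87, -0.12 and 0.76 in LOI(+) and 0.06, 0.55 and 0.40 in LOI(-). LOI(+) 2 was the lowest of the 6 mice and the other LOI(+) mice were the highest, so the LOI(+) values enclosed the LOI(-) values. The difference was 0.17 ± 0.27, with a 95% interval from -0.46 to 0.79. Without LOI(+) 2 it was 0.48, at an unadjusted p of 0.0153 and an adjusted p of 1 in limma, and without LOI(+) 1 it was -0.02.

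Cdc25a had log2 ratios of 1.79, 1.94 and 1.72 in LOI(+) and 2.12, 2.05 and 1.89 in LOI(-). The groups overlapped by LOI(+) 2 and LOI(-) 3, and differed by -0.20 ± 0.087, at an adjusted p of 0.817 in limma. With scale normalization between arrays the difference was -0.07, at an unadjusted p of 0.611 in limma. In the mice labelled male it was -0.33, at an unadjusted p of 0.00811 in limma, and it did not pass after adjustment. This gene stood highest against the pooled RNA among the members, 3.52-fold in LOI(+) and 4.06-fold in LOI(-). By contrast Ccnd3 stood at 0.58 of the pooled RNA in LOI(+) and 0.511 in LOI(-), and the brighter Cdk4 probe at 0.677 in LOI(+) and 0.627 in LOI(-). These ratios describe crypt RNA against a pool of growing cell lines and include any dye effect.

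**Figure D3:**
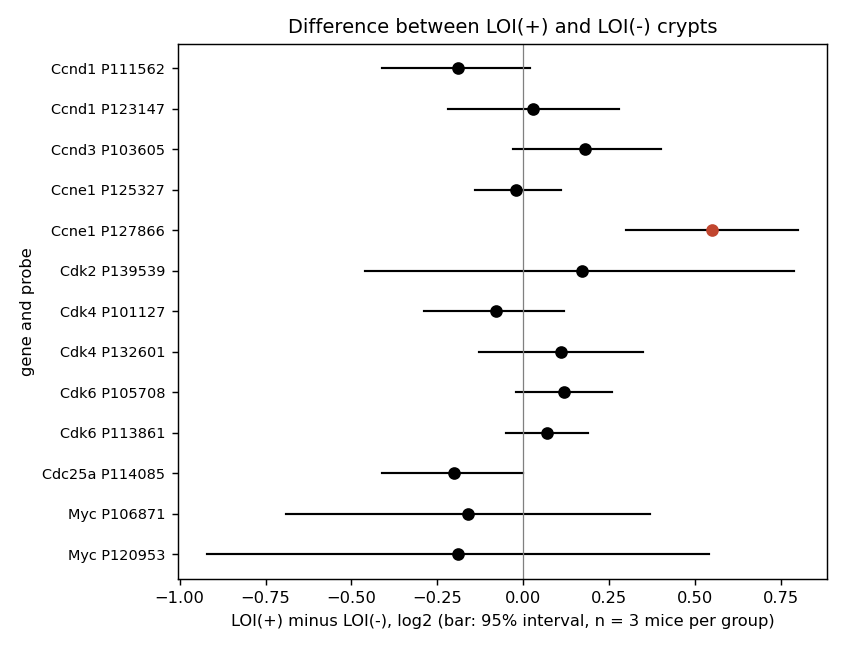
Log2 difference of each probe, LOI(+) minus LOI(-), drawn with its 95% interval from limma and n = 3 mice per group. Red marks an unadjusted p under 0.05, which is the Ccne1 probe A_66_P127866 at 0.55, and the widest intervals are those of Myc and Cdk2.

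Myc differed more from mouse to mouse than between the groups. Its brighter probe, A_66_P120953, had log2 ratios of 0.15, -0.33 and 0.68 in LOI(+) and -0.10, 0.86 and 0.30 in LOI(-). The other probe, A_66_P106871, had -0.55, -0.72 and -0.01 in LOI(+) and -0.62, 0.06 and -0.23 in LOI(-). Both probes put the 6 mice in the same order, with LOI(+) 2 lowest, then LOI(-) 1, LOI(+) 1, LOI(-) 3, LOI(+) 3 and LOI(-) 2 highest. The raw Cy3 of the brighter probe was 2234, 1991 and 3403 in LOI(+) and 2184, 2935 and 2198 in LOI(-), while its Cy5 ran from 3849 to 4838 over all arrays.

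The group difference of Myc was -0.19 ± 0.31 by the brighter probe and -0.16 ± 0.22 by the other, with adjusted p of 0.931 and 0.916 in limma. With an array left out, the other probe ranged from -0.37 without LOI(+) 3 to -0.0014 without LOI(-) 2, and the brighter one from -0.45 to 0.06. The 95% interval of the brighter probe ran from -0.92 to 0.54, so these mice leave the sign of any change undecided. The SD between mice of a group, pooled over both groups, was 0.495 for the brighter Myc probe and 0.355 for the other. Among all probes 99.4% and 98% had a smaller SD than these, and the median probe had 0.096. Cdk2 had an SD of 0.423, larger than that of 99% of probes. At the other end, the Cdk6 probe A_66_P113861 had an SD of 0.0268 and the dimmer Ccne1 probe 0.0336.

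**Figure D4:**
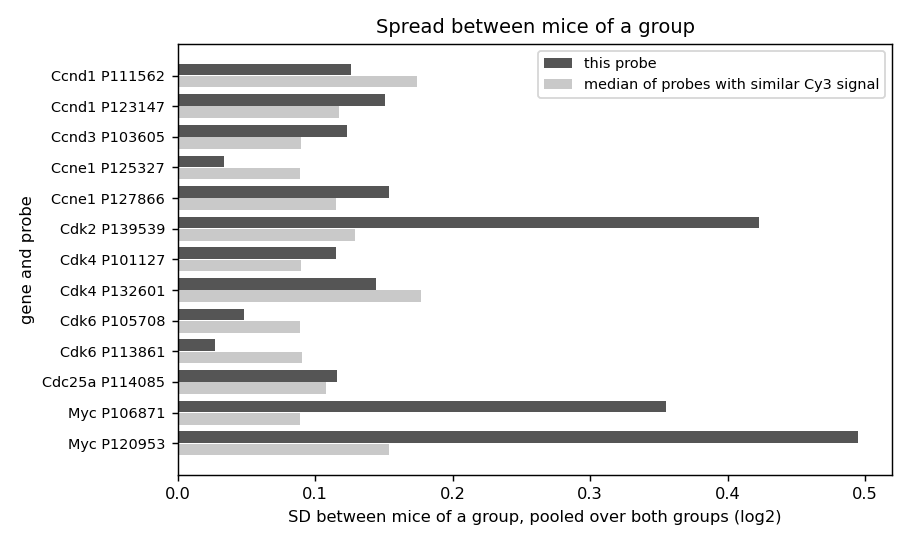
SD between mice of a group, pooled over LOI(+) and LOI(-), for each probe (dark) and the median SD of all probes whose mean Cy3 lies within 1.25-fold of it (light), on the log2 scale. Both Myc probes and the Cdk2 probe reach 0.355 to 0.495, against 0.0891 to 0.154 for probes of like brightness.

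Promoter sequence from RefSeq (GRCm38.p6) was at hand for Ccnd3, Ccne1, Cdk2, Cdk4, Cdk6 and Cdc25a, as the 250 bases before a transcript start given in the table. It was searched on both strands for CACGTG, the E-box that Myc with Max can bind, and for TTTGGCGC, TTTCCCGC, TTTCGCGC and TTTGCCGC, common forms of the E2F site. CACGTG stood in 6% of 32536 such windows and an E2F form in 1.9%. The Cdk4 window held 4 E-boxes, starting 172, 118, 98 and 11 bases before the start, and the Cdk6 window held 1. The Cdc25a window held 1 E2F form 67 bases before its start and the Cdk2 window 1 at 140. The start used for Cdc25a lies 61 bases inside the annotated gene and that for Cdk6 2889 bases inside, so these windows belong to inner starts, and 1 of the 2 Ccnd3 windows likewise. The Ccne1 and Ccnd3 windows held neither set of letters. The Cdk4 window, which ends at the annotated gene start, is shown because Myc, read in the same mice, varied more between mice than Cdk4 did. Capitals mark the E-boxes.
Cdk4, chr10:127063285-127063534, + strand: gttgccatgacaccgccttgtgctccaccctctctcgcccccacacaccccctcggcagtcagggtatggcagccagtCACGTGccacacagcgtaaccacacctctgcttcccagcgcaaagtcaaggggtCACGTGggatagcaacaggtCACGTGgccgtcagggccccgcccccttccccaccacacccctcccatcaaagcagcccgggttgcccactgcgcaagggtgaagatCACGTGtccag
A match is a description of these letters and not of binding. Between the lowest and the highest mouse Myc spanned 1.2 on the log2 scale by its brighter probe, and Cdk4 spanned 0.34 by either probe. These spans do not show whether Cdk4 followed Myc over the mice, which was not tested. The 2 Cdk4 probes themselves correlated at r = -0.231 over the 6 arrays.

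The genes around the members were read from lists of the same pathway, by the brightest probe of each gene. Among all named genes 4.92% had an unadjusted p under 0.05 with a higher mean in LOI(+) and 2.58% with a lower one, and 52.8% had a higher mean at any p. In limma 0 passed after adjustment in any list. Textbook E2F targets, the replication genes that cyclin E and E2F activity turn on, were the list with the most such genes. Of 20 measured, 17 were higher in LOI(+), 12 of them at an unadjusted p under 0.05, and the median difference was 0.366, against 0.0067 over all named genes. Mcm5, a subunit of the replicative helicase, had log2 ratios of 0.19, 0.34 and 0.13 in LOI(+) and -0.32, -0.44 and -0.19 in LOI(-), a difference of 0.54 ± 0.088. Chaf1a, which places histones on new DNA, differed by 0.55 ± 0.089. The list was written with earlier results on replication genes known, so its direction is no independent evidence. With an array left out, 10 to 14 of the 20 were higher at an unadjusted p under 0.05 and 17 to 18 had a higher mean.

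Among regulators that act between the cyclins and those targets, list medians were nearer 0, while single genes differed in both directions. Of 10 genes of the Rb and E2F family, 6 had a higher mean and 4 a lower one, and the median was 0.006, with 0 genes at an unadjusted p under 0.05. E2f1 had -0.33, -0.37 and -0.37 in LOI(+) and -0.48, -0.46 and -0.50 in LOI(-), a difference of 0.12 ± 0.052, and Rbl2, the p130 pocket protein, differed by -0.17 ± 0.10. Among 7 inhibitors of the kinases the median was 0.001, and 1 was higher and 2 were lower with an unadjusted p under 0.05. Of the 7, 5 were above the negative controls on all 6 arrays, while Cdkn1b was above on 5 and Cdkn2a on 0. Cdkn1a, the p21 protein that binds cyclin-Cdk2 complexes, had -1.84, -1.79 and -2.21 in LOI(+) and -1.16, -1.28 and -1.20 in LOI(-), a difference of -0.73 ± 0.12. Cdkn2d, which inhibits Cdk4 and Cdk6, differed by -0.17 ± 0.06. Both have an adjusted p of 0.808 in limma.

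**Figure D5:**
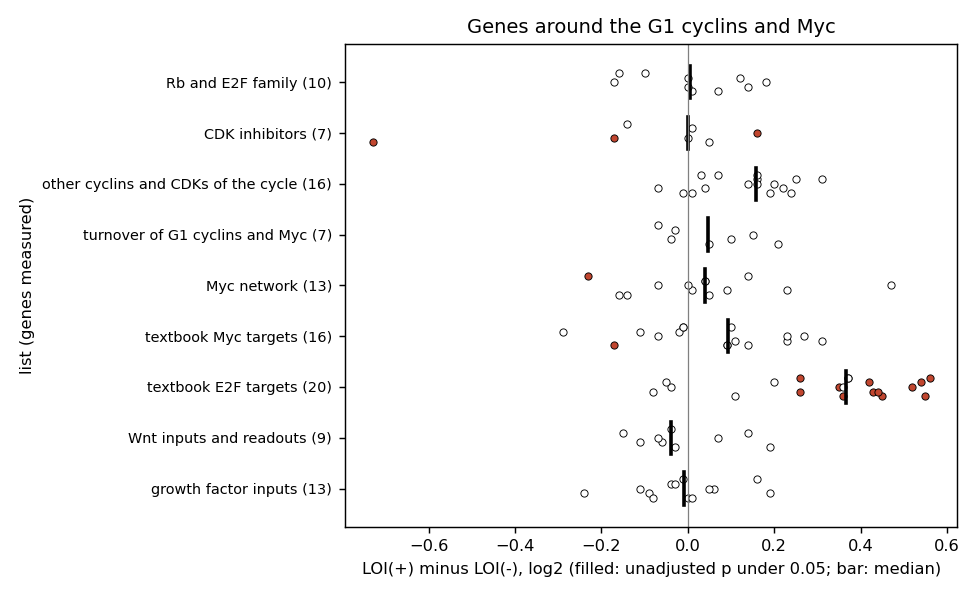
Log2 difference of each gene, LOI(+) minus LOI(-), in 9 lists around the listed cyclins, kinases and Myc, which are themselves left out. Filled points have an unadjusted p under 0.05 and bars mark list medians, of which that of the E2F targets lies farthest from 0, at 0.366.

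Later cyclins and kinases had a median difference of 0.158, with 14 of 16 higher and 0 at an unadjusted p under 0.05. Cdk1, the mitotic kinase, differed by 0.31 ± 0.14 and its partner Ccnb1 by 0.20 ± 0.11. Genes for the turnover of G1 cyclins and Myc had 4 of 7 higher and a median of 0.046. Fbxw7, which marks cyclin E and Myc for destruction, differed by 0.21 ± 0.11 and Rbx1, a RING subunit of the same ligases, by 0.15 ± 0.068.

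Around Myc, 9 of 13 genes of its network were higher and 1, Mxd4, was lower at an unadjusted p under 0.05. Mxd4 competes with Myc for Max, and its log2 ratios were -0.57, -0.56 and -0.55 in LOI(+) and -0.34, -0.41 and -0.25 in LOI(-), a difference of -0.23 ± 0.061 with an adjusted p of 0.808 in limma. Zbtb17, a zinc finger partner of Myc, differed by 0.14 ± 0.062. Textbook Myc targets had 9 of 16 higher and a median of 0.094. The polyamine enzyme Srm differed by -0.17 ± 0.072, at an unadjusted p of 0.0452 and an adjusted p of 0.81 in limma, and the nucleolar protein Nop58 by -0.29 ± 0.13.

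The inputs to Ccnd1 and Myc showed 0 genes at an unadjusted p under 0.05 in limma. Wnt inputs and readouts had 3 of 9 higher and a median of -0.039, with Tcf7l2, the main Wnt-responsive transcription factor of the gut, at -0.15 ± 0.083 and Axin2, a Wnt target, at -0.11 ± 0.072. Lef1, counted among these 9, was above the negative controls on 0 arrays. Growth factor inputs had 5 of 13 higher and a median of -0.009, with the kinase Akt1 at -0.24 ± 0.14 and Igf1 at -0.09 ± 0.062.

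Genes whose pattern over the 6 mice lay closest to 3 of the members were found by the mean absolute difference between log2 ratios, each gene centred on its own mean, among 11677 genes. For Ccne1 by A_66_P127866 these were Gstm3 at 0.0561, Rcc1 at 0.082 and Cdc34 at 0.0821. Gstm3, a glutathione transferase, had -0.66, -0.47 and -0.58 in LOI(+) and -1.20, -0.87 and -1.13 in LOI(-). For Ccnd1 by A_66_P111562 they were Tmub1 at 0.0265, Inpp1 at 0.0301 and Prkar1a at 0.0336. For Myc by A_66_P120953 they were Phlda1 at 0.114, Bcl7a at 0.199 and Gpbp1l1 at 0.2. Phlda1 had -1.87, -2.09 and -1.25 in LOI(+) and -1.70, -1.07 and -1.54 in LOI(-), so LOI(+) 2 was lowest and LOI(-) 2 highest, as for Myc. With 6 arrays and so many genes, close patterns are found for any gene, and these are given as a description.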

How the data were processed

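Both channels' spot intensity was deposited by the authors in scanner output of Agilent Feature Extraction, per the file headers. Cy3 held the mouse RNA per the labels. Processed signals are intensity values that the software had background-subtracted and dye-normalized with LOWESS, per the file headers. The deposited log10 table, used as an alternative, followed the log10 ratio of the processed signals plus a term for each feature (r at least 0.998 over 41174 features; column medians 2.9). The genome build and the authors' own test are not given in the sources used here.

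A RefSeq table of GRCm38.p6 named 15429 of 41006 probes (37.6%) by accession or synonym. In limma 3.58.1 under R 4.3.3, mean signals went through normexp (offset 50) and within-array loess, which gave controls no weight, and outlier features were dropped. The planned filter on dim probes removed 0. Groups were compared per probe with lmFit and eBayes, two-sided, and Benjamini-Hochberg adjustment covered 41006 probes at 0.05. The median SE was 0.078. For this comparison, data simulated over 40696 probes returned 40% of 50 probes changed by 0.5 on the log2 scale and 86% of 50 changed by 1. It returned 96% of 50 changed by 2 and 100% of 50 changed by 3, with 5 false calls. These shares hold for that simulated mix of changes and do not give the power in the real data. There the smallest adjusted p in limma over all probes was 0.808.

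The text names all member probes, the 2 genes of smallest p in each pathway list, and the 3 genes closest in pattern to Ccnd1, Ccne1 and Myc. The markers, Igf2 and Fabp6 were singled out after their values were seen. Members and lists were chosen with earlier results of these data known. The 6 arrays are separate mice. Alternatives varied the background correction, normalization, input values, filters, model, replicate block, mice by labelled sex, and left out each array. A slide block could not be fitted, since each array had its own slide.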

Additional observations from a re-analysis of the deposited data

How the results depend on the processing

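In every alternative fit 0 probes passed an adjusted p of 0.05 in limma, members included, and the Ccne1 probe A_66_P127866 was higher in LOI(+) in all 16, by 0.43 to 0.64, with an unadjusted p of 0.00029 to 0.0126 and an adjusted p of 0.525 to 1. Member probes at an unadjusted p under 0.05 numbered 3 without background correction, 2 with median centring, 3 with the replicate block and 4 in the mice labelled male, against 1 in the reported fit, and 1 to 3 when an array was left out (3 without LOI(+) 2 and without LOI(-) 1, 2 without LOI(-) 3). Their median difference was 0.064 with median centring and -0.0058 (without LOI(+) 1) to 0.071 (without LOI(-) 3) when an array was left out. The gap between the Myc probes turned to 0.0027 with scale normalization and 0.03 in the mice labelled male, where the brighter Myc probe stood at 0.03. With an array left out, signs also turned for the brighter Myc probe (-0.45 to 0.06), the gap between the Myc probes (-0.08 to 0.08), Cdk2 (-0.02 to 0.48), Ccnd1 A_66_P123147 (-0.06 to 0.12) and Ccne1 A_66_P125327 (-0.04 to 0.0014). Values moved by over 1.5 times with their sign kept for Ccnd3 (0.08 to 0.23), Ccnd1 A_66_P111562 (-0.26 to -0.10), Myc A_66_P106871 (-0.37 to -0.0014) and both Cdk4 probes (0.04 to 0.20 for A_66_P132601, -0.14 to -0.0058 for the other), and for the gaps between the probes of Cdk4 (0.09 to 0.35), Ccnd1 (-0.32 to -0.13) and Cdk6 (-0.08 to -0.03). The cause was not tested. The counts of E2F targets with an array left out were chosen after seeing the data. The gap between the Ccne1 probes was 0.50 to 0.66 when an array was left out, where 0.1 is the smallest exact permutation p that 3 against 2 arrays allow, so the p of 0.1 shows no stability. Probes at an unadjusted p under 0.05 numbered 2507 over all, and 1604 (without LOI(+) 2) to 3596 (without LOI(+) 1) when an array was left out; those higher in LOI(+) numbered 1565, and 916 to 2437 without the same arrays, with 963 without LOI(-) 2. Deviations from the group means of same-numbered mice correlated at -0.0841, -0.251 and 0.349, and LOI(+) 1 correlated best with LOI(-) 2, at 0.457. With 3 mice per group such deviations constrain each other, so these values do not settle whether replicate numbers pair the mice. With the replicate block the gap between the Ccne1 probes was 0.57, with an exact sign-flip p of 0.25, the smallest it can give.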
